A study of Mus musculus with 4 samples.

Results

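Resting microglia of the healthy mouse brain are described here from 795 cell barcodes of a single-cell RNA library. A barcode was taken as a member when it had at least 200 genes, at most 10% of its transcripts from mitochondrial genes, at least 3 transcripts summed over Tmem119, P2ry12, Gpr34, Sparc and Sall1, and none of Cd3d, Cd3e or Cd3g. The members made up 56.8% of the 1400 barcodes of that library past the gene and mitochondrial limits (exact binomial 95% interval 54.1 to 59.4%), of 1420 barcodes in the library and 8694 in the series. Transcripts are counted as unique molecular identifiers (UMIs), so that amplified copies of 1 captured molecule count once.

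The series held 4 libraries, all from mice of strain C57BL/6, with 1 library per group. The first was labelled healthy brain, and the number and age of the mice behind it and any treatment of them are not given in the sources used here. The others were brains with tumors of glioma-005, a mouse glioma cell line placed in the hippocampus of mice aged 8 to 12 weeks, which received IgG isotype control antibody, anti-CTLA-4, or anti-CTLA-4 with anti-CD4 depletion. Dosing began on day 7, collection was on day 35, and each tumor library pooled 3 tumors. In all groups the animals were perfused, tissue was digested enzymatically, and 4 sorted fractions (CD45int CX3CR1+ microglia, CD45hi CD11b+ myeloid cells, CD45hi CD3+ T cells and the remaining CD45hi cells) were mixed at equal ratios. The share of microglia in a library is therefore set by the mixing, and Cx3cr1 was used by the sort.

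Microglia are the resident macrophages of the brain parenchyma. They arise from yolk sac precursors, renew themselves locally and depend on signalling through the CSF1 receptor, while TGF-beta signalling and the transcription factor Sall1 maintain their identity. At rest they survey their surroundings with fine processes, sense nucleotides through purinergic receptors, secrete complement component C1q and digest debris in lysosomes.

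Few barcodes lay near the limit of the rule. Of the barcodes past the limits with no Cd3 UMI, 340 had 0 marker UMIs, 82 had 1 and 12 had 2, while 8 had 3, 4 had 5 and 757 had 13 or more. Just outside the limit, the 12 barcodes with 2 marker UMIs had a median of 8177 UMIs in all; just inside it, the 8 barcodes with 3 had a median of 1874. The median member held 62 marker UMIs, with 13 at the 5th and 108 at the 95th percentile, and 651 members (81.9%) had a UMI of each of the 5 genes. These values chose the members and are given as a description only.

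Positions are from GENCODE on mm10. P2ry12, the ADP receptor that steers process movement, lies at chr3:59216272-59262871 on the minus strand inside Med12l, which is read from the opposite strand. Gpr34, a lysophosphatidylserine receptor, lies at chrX:13632089-13640858 on the plus strand inside Cask, also on the opposite strand. Tmem119, a membrane protein of microglia, lies at chr5:113793729-113800516, and Sparc, a secreted matrix protein, at chr11:55394500-55423183, both on the minus strand with no overlapping gene. Sparc had a median of 22 UMIs per member, Gpr34 11 and Tmem119 7, with 46, 23 and 16 at the 95th percentile.

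**Figure D1:**
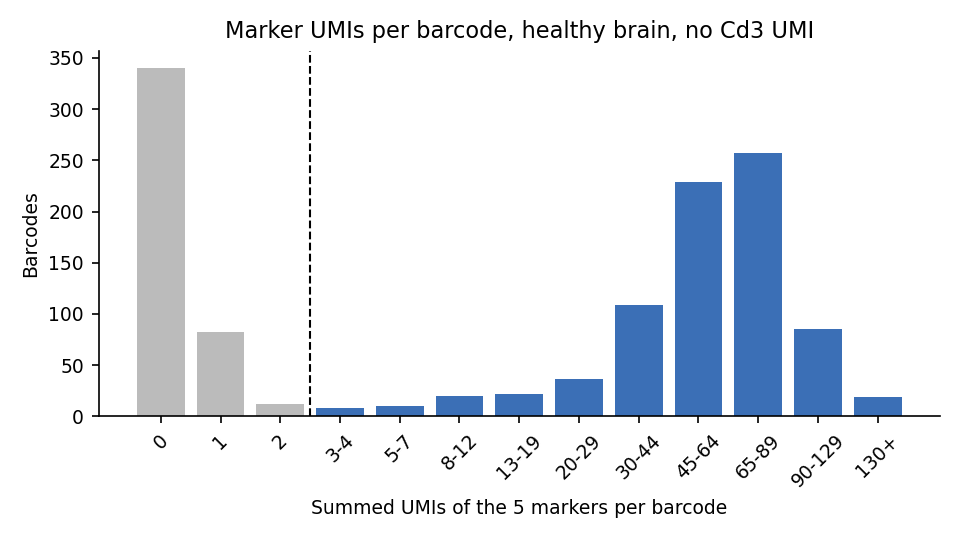
Number of healthy brain barcodes (vertical axis) by summed UMIs of the 5 markers (horizontal axis, bins of unequal width), for barcodes past the gene and mitochondrial limits with no Cd3 UMI. The dashed line is the limit of 3 UMIs; 340 barcodes lie at 0 and few lie beside the line.

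The members had a median of 5190 UMIs (range 519 to 19554), 2132 genes and 1.46% mitochondrial UMIs, and 4222330 UMIs together. Some markers of other cell types were at 0: Cd3d, Cd3e and Cd3g by the rule, and the myelin gene Mog, the endothelial gene Cldn5, the neuronal genes Snap25 and Syt1 and the platelet gene Ppbp with 0 UMIs, which allows up to 0.711 UMIs per 1e6 UMIs of the members (CPM) at 3 counts of the total. Other genes of the same lists were read: the 8 oligodendrocyte genes summed to 427 UMIs with a UMI in 36.4% of members, the 7 platelet and red cell genes to 379 UMIs in 35.0%, the 8 endothelial genes to 119 UMIs in 11.4%, and the 10 neutrophil genes to 7038 UMIs in 71.1%. In 26 members, however, at least 3 UMIs came from markers of another cell type, with border macrophage markers in 12, monocyte markers in 8, neutrophil markers in 6, oligodendrocyte markers in 4, B cell markers in 3 and astrocyte markers in 1; some held more than 1 kind. These 26 are called mixed barcodes below. They were picked by such markers, so a fall of those markers or their lists without them is built in and is no finding. They had a median of 7440 UMIs, against 5170 in the other 769, and results that rest on them are given with and without them. Scrublet, a doublet caller, marked 12 barcodes of the library, 7 of them members. Cells of 1 library are not replicates, so no test is given for any difference. Intervals cover counting error only and take UMIs as independent, although UMIs of 1 cell are not.

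Promoters of widely detected genes are shown first, beside those of unevenly carried genes, because the contrast between these kinds of gene runs through the results. As background, PU.1 (Spi1), a transcription factor that macrophages depend on, binds purine-rich sequence with GGAA at its core. Sequences are the 250 bases before the start in RefSeq promoters of build GRCm38.p6, 5′ to 3′, and capitals mark GAGGAA or its reverse complement. Of 62 genes of the microglial lists with a UMI in at least 50% of members, 48 had a RefSeq entry and 20 of these had 1 entry and no annotated exon in the window. The 5 of highest level are printed.
C1qb (chr4:136886201-136886450, minus strand): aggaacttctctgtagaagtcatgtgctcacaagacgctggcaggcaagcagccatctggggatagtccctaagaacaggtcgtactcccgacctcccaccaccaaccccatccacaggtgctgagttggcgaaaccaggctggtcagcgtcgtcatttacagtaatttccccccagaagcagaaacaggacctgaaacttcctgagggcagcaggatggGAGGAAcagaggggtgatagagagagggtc
Ctss (chr3:95526536-95526785, plus strand): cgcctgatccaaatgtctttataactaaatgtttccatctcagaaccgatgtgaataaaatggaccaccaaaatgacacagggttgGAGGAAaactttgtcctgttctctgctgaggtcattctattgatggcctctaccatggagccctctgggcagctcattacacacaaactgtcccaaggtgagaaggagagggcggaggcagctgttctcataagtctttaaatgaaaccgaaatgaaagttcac
Trem2 (chr17:48346151-48346400, plus strand): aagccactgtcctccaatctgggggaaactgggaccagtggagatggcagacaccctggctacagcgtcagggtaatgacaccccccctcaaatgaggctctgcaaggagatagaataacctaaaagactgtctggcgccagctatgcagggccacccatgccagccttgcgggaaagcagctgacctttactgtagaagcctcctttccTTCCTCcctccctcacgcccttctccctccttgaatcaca
Ctsz (chr2:174439040-174439289, minus strand): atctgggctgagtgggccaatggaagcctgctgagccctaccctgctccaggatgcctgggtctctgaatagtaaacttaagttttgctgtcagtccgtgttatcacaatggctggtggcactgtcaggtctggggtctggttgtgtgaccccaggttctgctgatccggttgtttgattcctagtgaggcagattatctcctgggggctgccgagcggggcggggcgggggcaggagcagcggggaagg
Itgb5 (chr16:33829415-33829664, plus strand): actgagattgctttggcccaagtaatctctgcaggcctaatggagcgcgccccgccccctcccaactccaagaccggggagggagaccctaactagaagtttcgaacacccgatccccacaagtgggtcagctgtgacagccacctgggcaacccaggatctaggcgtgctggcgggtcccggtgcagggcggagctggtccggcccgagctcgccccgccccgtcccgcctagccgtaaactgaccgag

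C1qb, Ctss and Trem2 held 1 match each, and Ctsz and Itgb5 held none. Over all 60 promoters of the 48 genes, GAGGAA was in 41.7%, against 23.3% of 32851 promoters of the table. The other motifs searched on both strands were GGAAGT (23.3% against 19.7%), CACGTG (13.3% against 6.02%) and TATAAA (13.3% against 12.4%). A match to GAGGAA and one to GGAAGT can share letters. The motifs and the set of genes were chosen after matches in some of these promoters had been seen, a match is letters and not a binding site, and no difference was tested. For comparison, the promoters of the unevenly carried chemokine genes Ccl12 and Ccl3 each held 1 match to GAGGAA.
Ccl12 (chr11:82101595-82101844, plus strand): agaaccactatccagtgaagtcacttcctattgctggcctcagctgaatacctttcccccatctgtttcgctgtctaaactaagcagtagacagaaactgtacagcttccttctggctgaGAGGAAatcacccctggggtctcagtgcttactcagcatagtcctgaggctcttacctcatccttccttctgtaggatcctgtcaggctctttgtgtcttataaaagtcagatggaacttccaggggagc
Ccl3 (chr11:83649379-83649628, minus strand): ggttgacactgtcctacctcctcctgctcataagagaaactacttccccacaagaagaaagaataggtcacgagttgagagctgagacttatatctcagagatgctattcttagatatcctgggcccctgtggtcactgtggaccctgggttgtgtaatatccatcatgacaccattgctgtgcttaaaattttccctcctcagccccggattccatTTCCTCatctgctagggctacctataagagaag

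The most abundant transcripts of resting microglia were those of secretion, lysosome and complement. Cst3, which encodes the secreted protease inhibitor cystatin C, was at 54203 CPM of summed UMIs (counting interval 53981 to 54426) with a UMI in all 795 members. It was followed by the nuclear RNA Malat1 at 29785 CPM and the actin-binding peptide Tmsb4x at 15553 CPM. The 3 chains of C1q were also among the most abundant, with C1qa at 9503, C1qb at 8241 and C1qc at 7051 CPM. Actb stood at 6826 CPM, the fractalkine receptor gene Cx3cr1 at 6426 CPM, and the lysosomal protease gene Ctsd at 6325 CPM. Because the counts come from the 3′ end of transcripts, they are not scaled by gene length.

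Surface sensors and adhesion molecules summed to 32538 CPM (32367 to 32711), and 20 of 21 listed genes had a UMI in at least 50% of members. The list includes Tmem119, Gpr34, P2ry12 and Cx3cr1, which the rule or the sort used. Without them the other 17 genes summed to 19099 CPM. Tyrobp, the signalling adaptor of Trem2, was at 3058 CPM. Selplg, a selectin ligand, was at 2942 CPM and Fcrls, an Fc receptor-like protein, at 2535 CPM. Trem2, a lipid-sensing receptor, was at 2489 CPM and the lectin Siglech at 1939 CPM. B and T cell barcodes of the same library are given for comparison. They were not cleared of mixtures and can hold RNA of other cells as well as free RNA. S100a8 was at 3365 CPM in T cell barcodes, and the platelet and red cell list at 19056 CPM in B cell barcodes. Fcrls had a UMI in 98.1% of members, against 1.77% of B cell and 5.48% of T cell barcodes. Cx3cr1 had a UMI in 99.6% of members, against 7.96% of the 113 B cell barcodes (median 3553 UMIs) and 13.01% of the 146 T cell barcodes (median 6153 UMIs). Among the purinergic receptors, P2ry12 was at 3428, P2ry13 at 654 and P2ry6 at 391 CPM, and Entpd1, which degrades extracellular ATP, at 409 CPM.

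The CSF1 receptor gene Csf1r was at 3901 CPM with a UMI in 99.1% of members. The TGF-beta axis was carried by Tgfbr1, the type I receptor, at 1096 CPM, Tgfbr2 at 335 CPM and the ligand Tgfb1 at 316 CPM, so ligand and both receptor chains were read in the same population. Among 15 lineage transcription factors, 11 had a UMI in at least 50% of members. Mef2c led with 1646 CPM, and Zfhx3 was at 952, Mef2a at 727 and Irf8 at 564 CPM. Spi1, which encodes PU.1, was at 473 CPM and the rule's own Sall1 at 466 CPM.

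In complement beyond C1q, the receptor subunit gene Itgam was at 721 CPM and the receptor gene C3ar1 at 179 CPM, while C3 was at 3.79 and C4b at 2.13 CPM and Vsig4 at 0. All 16 lysosome and protease genes were in at least 50% of members, with the protease genes Ctss at 6297, Lgmn at 3665 and Ctsb at 1652 CPM. Phagocytic receptors were led, after Tyrobp and Trem2, by Fcgr3 at 787 and Cd68 at 729 CPM. Cell cycle genes were near 0, at 17.5 CPM over 11 genes.

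Variation among cells was small for surface, complement and lysosome genes and larger for some secreted factors and a few other genes. It is given as the squared coefficient of variation beyond Poisson counting noise once each cell's total is allowed for (CV2), for the 3962 genes with at least 0.2 UMIs per member. The median CV2 was 0.293, and 216 genes (5.45%) reached 1. Leaving out the mixed barcodes gave 193 of 3918 genes (4.93%). The C1q chains lay at 0.054 to 0.074, Csf1r at 0.071, Cx3cr1 at 0.098 and Trem2 at 0.090. The median over the listed genes was 0.111 for lysosome and proteases, 0.123 for complement, 0.162 for surface sensors and 0.207 for transcription factors. It was 0.349 for the CSF1 receptor axis and 0.939 for secreted and matrix genes, of which 5 exceeded 1. Spi1 was at 0.069. Within the lysosomal group Ctsb stood apart at 0.485. The surface sensor and transcription factor lists include genes that the rule or the sort used.

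**Figure D2:**
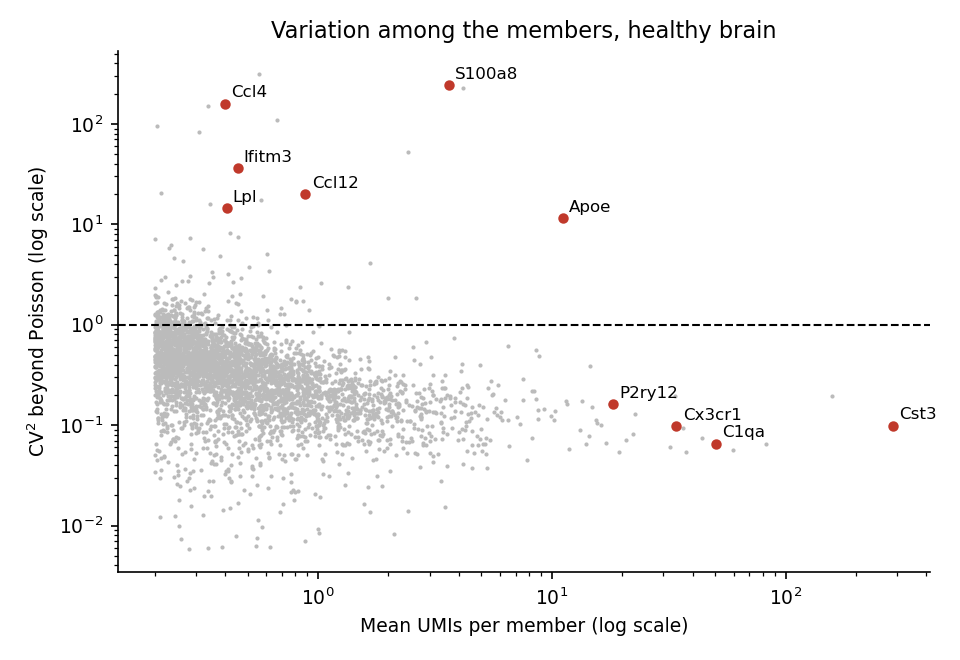
CV2 beyond Poisson (vertical axis, log scale) against mean UMIs per member (horizontal axis, log scale) for genes with at least 0.2 UMIs per member; grey points are genes, red points are named, the dashed line is 1, and 133 genes at or below 0.005 are not drawn. Abundant program genes such as C1qa and Cst3 lie at or below about 0.1, while Apoe, Ccl12 and Ccl4 lie above 10.

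Leaving out mixed barcodes lowered some of the 15 largest values and not others. For markers of other cell types a fall is built in, since such markers picked the mixed barcodes. Retnlg, a neutrophil gene, had a CV2 of 311 with mixed barcodes and 0.905 without, S100a8 245 and 4.03, S100a9 226 and 2.09, S100a6 151 and 0.989, Crip1 95.6 and 1.16, S100a11 83.4 and 0.718, Msrb1 20.7 and 0.060, and Sepw1 15.96 and 0.714. Of these, Crip1, S100a11 and Sepw1 are not particular to neutrophils, and had a UMI in 92.0, 77.9 and 81.4% of B cell barcodes. S100a6 and Msrb1 were read in lymphocyte barcodes too. S100a6 was at 192 CPM in B and 448 CPM in T cell barcodes, against 63.7 CPM in members. Msrb1 was at 94.4 and 65.5 CPM, against 40.0 CPM. Lyz2, which encodes lysozyme, fell from 53.0 to 3.19 and the MHC class II chaperone gene Cd74 from 109 to 9.59. Interferon-induced Ifitm3 and Ifi27l2a kept part of theirs, at 13.5 and 7.80 without mixed barcodes against 36.2 and 17.3 with them. The chemokine genes Ccl4 (160 with, 157 without) and Ccl12 (20.1 and 21.2) and the lipoprotein lipase gene Lpl (14.4 and 14.97) moved little.

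Ccl4 was concentrated in few cells: 92.5% of its 318 UMIs were in 8 members, and 3.40% of members had any. Apoe, which encodes the lipid carrier apolipoprotein E, was at 2102 CPM with a CV2 of 11.5. Its UMIs per member ran from 0 through a median of 1 to 677, and 62.8% of members had at least 1. Immediate early genes, which rise quickly after stimulation and can rise during tissue digestion, were read unevenly: 7 of 22 had a UMI in at least 50% of members and 3 in under 5%. Jun was at 767, Jund at 760 and Btg2 at 660 CPM, in 85.9, 90.1 and 86.2% of members, while Fos was in 35.8% and Egr1 in 27.7%. The CV2 of Jun, Jund and Btg2 was 0.345, 0.213 and 0.316, and that of Fos 1.29 and Egr1 3.42. Whether they were made in the brain or during digestion was not tested.

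**Figure D3:**
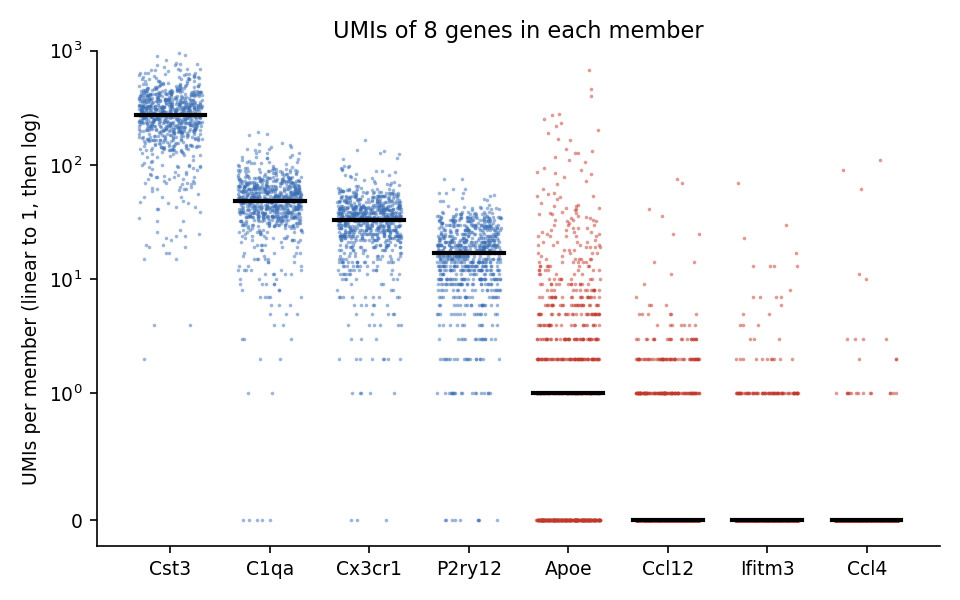
UMIs of 8 genes (vertical axis, linear to 1 and then log) in each of the 795 members; points are members, spread sideways only for display, and black lines are medians. Cst3, C1qa, Cx3cr1 and P2ry12 form single clouds, while Apoe runs from 0 to 677 and Ccl12, Ifitm3 and Ccl4 have a median of 0.

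In cells thinned to 2000 UMIs (733 members; 62 were shallower), surface sensors took a median of 3.30% of UMIs, with 2.20% at the 5th and 4.50% at the 95th percentile. The spread was 1.82 times the binomial spread. It was 1.93 times for complement, 1.25 times for transcription factors, 3.21 times for lysosome and proteases, 3.28 times for secreted and matrix genes, 2.54 times for interferon response genes and 4.41 times for the disease-associated microglia list, which Apoe leads. This ratio grows with the level of a list as well as with its variation, so it does not rank lists of unlike level. Lysosome and protease genes took a mean of 9.54% of UMIs and interferon response genes 0.052%. Across these 733 cells of 1 library the surface sensor share and the disease-associated share had a Spearman correlation of −0.34, and complement and lysosome shares one of 0.44. Shares of the same thinned total push against each other, and no p-value is given. The surface sensor share includes genes that the rule or the sort used.

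Of the 16 disease-associated genes in the table, 8 had a UMI in under 5% of members. The tetraspanin gene Cd9 was at 1224 CPM in 94.6% of members, Cd52 at 492 CPM in 72.1% and Cd63 at 374 CPM in 62.1%. By contrast Igf1 was at 10.2, Fabp5 at 9.24 and Itgax at 6.87 CPM, each in under 3% of members, and Gpnmb was at 0. Of antigen presentation genes, the light chain gene B2m was at 2189 CPM in 97.2% of members and the class I genes H2-D1 at 717 and H2-K1 at 543 CPM, while 2 of 11 class I genes were in under 5%. The 7 class II genes summed to 481 CPM, mostly from H2-DMa, a peptide loading chaperone, at 267 CPM in 67.0% of members. The class II chain gene H2-Aa was at 30.8 CPM in 1.64%. Of the interferon genes, Bst2 was in 51.8% of members at 193 CPM, Ifitm3 in 13.5% at 85.3 CPM and Isg15 in 5.16% at 23.9 CPM. T cell barcodes of the library carried some of these too, with Cd52 at 2977 and B2m at 1897 CPM.

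Depth moved with some lists. When the members were ordered by total UMIs into 3 sets of 265, with medians of 3708, 5190 and 6758 UMIs, surface sensors summed to 34333, 33800 and 30921 CPM. The disease-associated list was at 3488, 2990 and 5739 CPM, the interferon list at 469, 453 and 708 CPM, and immediate early genes at 4767, 4533 and 4233 CPM. The neutrophil list, at 1036, 227 and 2919 CPM, followed no order. The part of depth in the differences among cells was not tested.

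Small sets of members were picked out by their values, so the genes used to pick them are no finding. In the first set, 17 members (2.14%) had at least 3 UMIs of Ccl3 plus Ccl4 and held 88.6% of the UMIs of those chemokine genes; 10 members lay just under the limit and 6 just over it. Cd63 was at 1631 CPM, against 340 CPM in the other 778 members, and 4.34 times as high when the member with the most Cd63 UMIs was left out. Cd83, an activation marker, was at 686 against 79.1 CPM, and 7.96 times as high without its top member. P2ry12 was at 1497 against 3481 CPM, and C1qa at 11035 against 9461 CPM. Other differences rested in part or whole on 1 member. Apoe was at 7532 against 1953 CPM, but 1 member held 677 of the 845 UMIs, and without it the level was 1653 CPM. The disease-associated list, which Apoe leads, was 3.73 times as high (counting interval 3.55 to 3.92) and 2.10 times without its top member. Without the top member of each gene the ratio fell from 9.23 to 4.12 for Lpl, from 36.6 to 15.2 for Il1b and from 20.9 to 2.43 (interval 0.643 to 6.53) for Ccl2. Of the 17, 1 was a mixed barcode, and the median depth was 5385 UMIs against 5188 outside.

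In the second set, 40 members (5.03%) had at least 10 UMIs of the 14 interferon response genes, with 15 members just under the limit and 8 just over it. MHC class I genes were 1.57 times as high in them (1.498 to 1.64), and 1.58 times without mixed barcodes. Ccl12 was 4.35 times as high, 3.28 times without mixed barcodes and 3.48 times without its top member. Of the 40, 9 were mixed. The neutrophil list was 16.01 times as high in the set, but 1 member held 3897 of its 3977 UMIs, and the ratio was 0.337 without it. The monocyte list was 53.7 times as high with mixed barcodes and 8.38 times without (18.1 times without its top member), and the disease-associated list 2.40 and 1.56 times. Monocyte markers picked some of the mixed barcodes, so the fall of the monocyte list is built in. Rule markers were 0.70 times as high with them and 0.87 times without. Their median depth was 6724 UMIs against 5152 outside, whose part in the result was not tested.

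In the third set, 34 members (4.28%) had at least 50 Apoe UMIs, with 8 just under the limit and 6 just over it. P2ry12 was at 1435 against 3557 CPM and Tmem119 at 581 against 1468 CPM. The receptor tyrosine kinase gene Axl was at 133 against 8.32 CPM, with a UMI in 17 of 34 members (15.9 times as high, and 10.6 times without mixed barcodes), and Lyz2 was 6.21 times as high (6.07 times without mixed barcodes). C1qa, at 9566 against 9499 CPM, differed by less than its counting interval. MHC class II genes were 4.55 times as high with mixed barcodes and 1.23 times without, and 1 member held 330 of their 462 UMIs. Of the 34, 5 were mixed, and the median depth was 7270 UMIs against 5150. The border macrophage list was 15.3 times as high with mixed barcodes and 1.21 times without. Border macrophage markers picked some of the mixed barcodes, so that fall is built in. In all, 8 members were in both the Apoe and the interferon set.

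Clustering of the members alone gave 5 groups of 164, 315, 51, 206 and 59. The group of 51 was led by Chil3, H2-Aa, Ifitm3, H2-Eb1 and Ccr2 and held 29 of the 40 interferon members and 8 mixed barcodes. The group of 59 was led by S100a8, S100a9, Ccl4, Retnlg and S100a6 and held 11 of the 17 chemokine members and 6 mixed barcodes. The group of 206 had Cd79a, Ly6d, Ccl12 and Crip1 among its leading genes, with 4 mixed barcodes. In the groups of 164 and 315 the leading genes, Slc2a3, Kcnq1ot1, Atp5sl, Atrx and Uhrf2 in one and Mypopos, Nmd3, Rcan1, Ndufaf3 and Klrd1 in the other, differed from the remaining members by less than 1 on the log2 scale after 20 CPM were added to both. Without the mixed barcodes clustering also gave 5 groups, of 218, 94, 370, 67 and 20. Chil3, H2-Aa, S100a8, S100a9 and Cd79a were then among the leading genes of none. The group of 94 was led by Ccl4, Ccl3, Lpl, Ifitm3 and Isg15, and held 11 chemokine and 27 interferon members. Cd79a had a UMI in only 1.13% of all members. Groups are described by their genes and carry no names.

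The same rule in the tumor libraries took 253 barcodes of the IgG library, 206 of the anti-CTLA-4 library and 520 of the depletion library, with median depths of 6144, 5396 and 6032 UMIs against 5190 in healthy brain. Members with only 3 to 7 marker UMIs were 2.26% in healthy brain, against 23.3, 10.7 and 26.3%. Mixed barcodes were 26 of 795 members in healthy brain, against 44 of 253, 18 of 206 and 71 of 520, a larger share in each tumor library. Every comparison below has 1 library per group and the same healthy library as its base, so group and library cannot be told apart. Sex-linked transcripts also differed: Xist was at 0 in healthy microglia and at 1767, 1947 and 1310 CPM in the tumor libraries, while Ddx3y was at 89.3 CPM in healthy microglia and 0 in the others. A gene with 50 or more UMIs summed over the healthy and the tumor members was tested, and it was called by size when the levels differed by a factor of 2 or more and at least 10% of the cells on the higher side had it. By this rule 4.24% of 8569 genes were higher and 7.74% lower with IgG, 3.37% higher and 5.8% lower of 8438 with anti-CTLA-4, and 5.42% higher and 13.7% lower of 9055 with depletion. Median-of-ratios scaling divided tumor levels by factors with log2 values of −0.28, −0.26 and −0.41. Ratios of tumor to healthy level therefore rose, and the split turned, to 511 higher and 328 lower, 397 and 233, and 907 and 570.

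Many surface sensor genes that neither the rule nor the sort used were at a higher level in healthy microglia, and the rest were not called. Of the 21 listed genes, 3 are rule markers and Cx3cr1 was used by the sort, and they are left out here. Of the other 17, all tested, 9, 8 and 10 were lower in the IgG, the anti-CTLA-4 and the depletion library and 0 were higher. Their medians were −1.25, −0.99 and −1.68 on the log2 scale, against −0.28, −0.25 and −0.34 over all genes, and −0.98, −0.74 and −1.29 with median-of-ratios scaling. Fcrls was at 2535 CPM in healthy brain and at 294, 466 and 540 CPM in the tumor libraries. P2ry13 was at 654 against 227, 261 and 91.0 CPM, and the fructose transporter gene Slc2a5 at 327 against 93.5, 123 and 33.0 CPM. Of 15 transcription factors, the rule's own Sall1 included, 5, 4 and 9 were lower. All 5 rule markers were lower with IgG and with depletion, so Sall1 is among those calls and is no finding. With anti-CTLA-4, 4 of the 5 rule markers were lower. Mef2c was at 1646 against 749, 818 and 550 CPM, while Spi1, at 473 against 354, 378 and 396 CPM, was not called. Of the 13 TGF-beta axis genes 11 were tested and 2, 2 and 4 were lower, with Tgfbr1 at 1096 against 453, 539 and 294 CPM. The medians of that axis were −0.58, −0.47 and −0.89 on the log2 scale, and −0.31, −0.25 and −0.51 with median-of-ratios scaling. Over all tested genes 7.74, 5.8 and 13.7% were lower and 4.24, 3.37 and 5.42% higher. The 0 of 17 surface genes called higher lies near that last share and is no finding.

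C1q did not follow the surface program. C1qa was at 9503 CPM in healthy brain and at 12137, 11759 and 9810 CPM in the tumor libraries, and neither it nor C1qb or C1qc was called in any. Of 22 immediate early genes, 20, 20 and 21 were tested. Of these 10, 7 and 7 were lower, beside 7.74, 5.8 and 13.7% of all tested genes. Another 1, 1 and 4 were higher, beside 4.24, 3.37 and 5.42%. Fosb was at 45.2 against 1.07, 5.50 and 4.12 CPM and Jun at 767 against 202, 280 and 177 CPM.

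Interferon response genes and Apoe, uneven at rest, were higher in each tumor library. All 14 interferon response genes were called higher in each, beside 4.24, 3.37 and 5.42% of all tested genes. Their medians were 3.1, 2.67 and 2.60 on the log2 scale, against −0.28, −0.25 and −0.34 over all tested genes. Members with at least 10 UMIs of that list were 5.03% in healthy brain and 70.0, 56.8 and 56.7% in the tumor libraries. With 2000 UMIs per cell the share of cells with any such UMI was 44.7%, against 99.1, 90.6 and 89.4%. Apoe was at 2102 CPM against 11379, 7420 and 13999 CPM. Members with 50 or more Apoe UMIs were 4.28%, against 37.5, 24.3 and 46.5%, and at 2000 UMIs per cell 51.4% had any Apoe UMI, against 77.4, 59.9 and 85.5%. Members with 3 or more UMIs of Ccl3 plus Ccl4 were 2.14% (1.25 to 3.40%), against 6.32% (3.66 to 10.1%), 4.85% (2.35 to 8.75%) and 13.5% (10.6 to 16.7%). These intervals cover counting of cells within each library only. At 2000 UMIs per cell the share with any UMI of either gene was 3.55%, against 10.4, 3.47 and 19.8%.

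Of the 16 disease-associated genes, 14, 14 and 16 were tested, 10, 8 and 10 were higher and 0, 1 and 1 lower. Their medians were 2.22, 1.80 and 2.06 on the log2 scale, and 2.15, 0.53 and 2.85 with cells thinned to 1000 UMIs. Of 11 MHC class I genes, 9, 9 and 7 were higher, and of 7 class II genes 6 were tested and 6, 6 and 4 were higher. Of 16 lysosome and protease genes, 2, 0 and 1 were higher and 2, 2 and 3 lower. Over all tested genes 4.24, 3.37 and 5.42% were higher and 7.74, 5.8 and 13.7% lower. The lysosome and protease sum was lower, at 94564 CPM in healthy brain against 62295, 64601 and 49846 CPM. Most or all of that fall lay in Cst3, at 54203 against 18729, 26616 and 13812 CPM. The medians of the list were near level, at 0.04, −0.23 and −0.07 on the log2 scale.

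The listed genes with the largest ratios were those near 0 at rest. C4b, complement component 4, was at 2.13 CPM against 547, 405 and 227 CPM, and the chemokine gene Cxcl10 at 3.32 against 318, 488 and 373 CPM. H2-Aa was at 30.8 against 5021, 6682 and 1349 CPM, H2-Eb1 at 27.9 against 3885, 5847 and 1083 CPM, and H2-Ab1 at 36.2 against 4922, 7312 and 1350 CPM; in healthy brain 1 member held 116 of the 130 H2-Aa UMIs. With depletion, Spp1 (osteopontin) was at 826 against 7.10 CPM, and the proliferation genes Birc5 and Mki67 were at 62.9 and 54.6 CPM against 0.711 CPM, from 3 UMIs each in healthy brain (ratios with counting intervals of 29.9 to 432 and 26.0 to 376). Other large ratios downward were those of Gp9 (71.1 against 3.23, 15.8 and 4.12 CPM), S100a8 (684 against 33.3, 31.6 and 1316 CPM in the same order), S100a9 (784 against 30.6, 39.9 and 1057 CPM), Lpl with anti-CTLA-4 (76.5 against 16.5 CPM) and Pecam1 with depletion (26.3 against 3.35 CPM). In healthy brain 8 members held 86.8% of the S100a8 UMIs and 86.5% of the S100a9 UMIs.

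**Figure D4:**
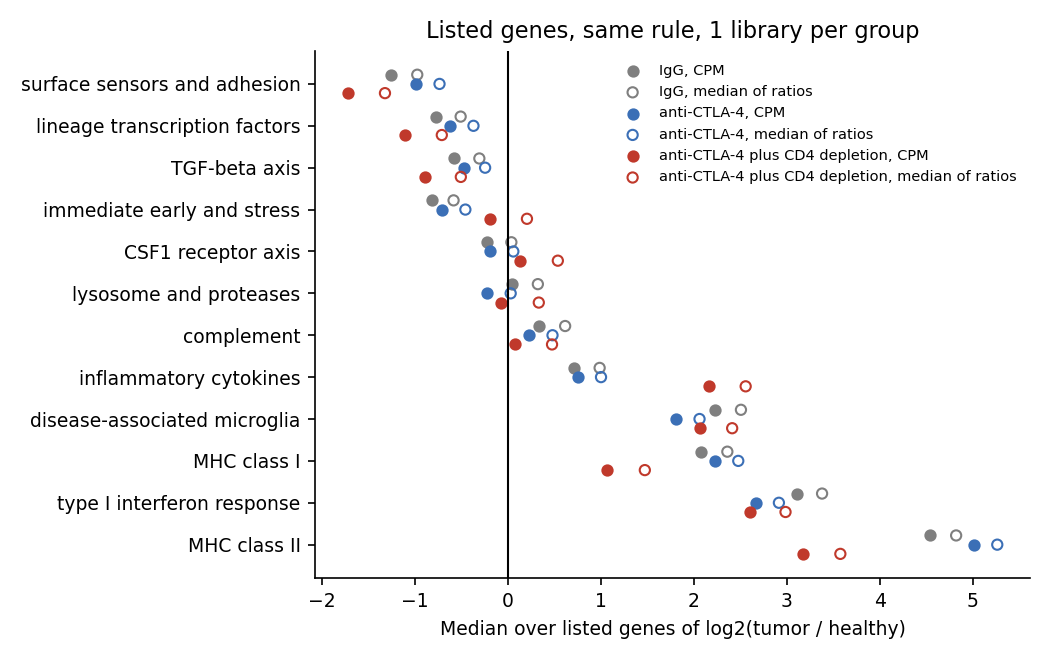
Median over the tested genes of each list of log2 tumor over healthy level (horizontal axis) for 12 lists (vertical axis) in the 3 tumor libraries; filled points use CPM and open points median-of-ratios scaling, with 1 library per group and no error. Surface sensors, transcription factors and the TGF-beta axis lie below 0 and interferon and MHC lists above it on both scalings, while lysosome, CSF1 receptor and immediate early lists change side with the scaling in at least 1 library. The surface sensor and transcription factor lists are drawn with the genes that the rule or the sort used, so part of their fall is no finding.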

How the data were processed

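The deposited files held UMI counts per gene and barcode for 4 libraries made with a 10x Genomics 3′ kit. Counts were made with Cell Ranger 3.1.0, per the file headers, on build mm10, per the submitters' processing notes; the gene annotation and cell-calling settings are not given in the sources used here. No reads were reprocessed. Members were picked by the rule given above, summed counts were divided by total counts of the members (CPM), and exact Poisson, Clopper-Pearson and conditional binomial intervals at 95% were computed with scipy 1.17.1 in Python 3.11.15. Clustering used scanpy 1.11.5 (1000 variable genes, 15 components, 15 neighbours, Leiden resolution 0.5). B and T cell barcodes had at least 3 UMIs of their markers and were not members; 13 members had as many B cell marker UMIs and stayed members. The variation measure and the size rule were tested on simulated data with known answers. Of 27998 gene IDs, 27645 matched GENCODE vM21, used for positions and exons.

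The members, the 31 gene lists and the tests were chosen with earlier results of these data known. Named genes are the 5 rule markers, the 10 of highest CPM (ribosomal, mitochondrial and unnamed genes left out), the 2 to 5 highest of the main lists and their defining markers at 0, the 15 most variable, the 5 leading genes of each clustering group, and the 5 listed genes with the largest ratio each way per tumor library; others named were chosen after their values were seen. Tmem119, a marker of the rule, was at 1414 CPM, Gpr34 at 2171 CPM and Sparc at 4268 CPM. Leaving out mixed barcodes, the top member of a set, or the rule's genes from the surface list were alternatives added after seeing the data. Some genes that the rule names are not reported here. The antibody-defined sort, not the RNA, set the mixture of cells.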

Additional observations from a re-analysis of the deposited data

How the results depend on the processing

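With 1 library per group nothing here carries a replicate error, and depth limits single-cell shares of genes under about 1 UMI per cell. The count of members stayed within 1.5 times under each alternative run. Summed CPM of surface sensors moved beyond its counting interval to 33066 without mixed barcodes, 37224 with totals that leave out ribosomal and mitochondrial genes and 33088 as a mean of per-cell CPM; complement moved to 27114 and 30526 under the first 2. Genes with a CV2 of 1 or more rose to 2068 with a minimum of 0.05 UMIs per member. The surface and disease-associated correlation was −0.25 at 1000 UMIs per cell and −0.45 at 4000, and the complement and lysosome one 0.36 at 1000. Clustering gave 2 groups at resolution 0.25 and 12 at 1. Genes called higher and lower with IgG, anti-CTLA-4 and depletion numbered 635 and 1897, 533 and 1601, 922 and 2480 at a ratio of 1.5; 622 and 1363, 544 and 1153, 966 and 2414 with 20 UMIs and no minimum share; 112 and 200, 78 and 119, 172 and 305 with cells thinned to 1000 UMIs, where fewer UMIs are left to pass the minimum; and 511 and 328, 397 and 233, 907 and 570 with median-of-ratios scaling. Under that scaling 9 of 77 list medians changed sign, 5 of them among the 9 lists recomputed under every alternative: the CSF1 receptor axis to 0.036 with IgG and 0.057 with anti-CTLA-4, lysosome and proteases to 0.028 with anti-CTLA-4 and 0.331 with depletion, and immediate early genes to 0.203 with depletion. The other 4 were purinergic signalling (0.039) and oligodendrocyte genes (0.174) with anti-CTLA-4, and phagocytic receptors (0.078) and secreted and matrix genes (0.339) with depletion. The lysosome median with depletion also changed sign to 0.058 with thinned cells, 0.054 with at least 5 marker UMIs and 0.077 without mixed barcodes; the cause was not tested. Leaving out the top member, chosen after seeing the data, turned the ratio of Apoe in the Ccl3 plus Ccl4 set to 0.846 and of the neutrophil list in the interferon set to 0.337. No paired analysis was possible because each group has 1 library.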

Other observations

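Some genes named for other lineages were read in the resting microglia while another gene of the lineage was at or near 0. Gp9, a platelet glycoprotein gene, had a UMI in 28.4% of members (300 UMIs), while Itga2b had 1 UMI and Ppbp 0; in B and T cell barcodes Gp9 had 1 and 0 UMIs. Cd79b, a subunit of the B cell receptor complex, was in 25.4% of members and its partner Cd79a in 1.13%. The ratio of Cd79b to Cd79a UMIs was 3.27 in members and 0.674 in B cell barcodes. Without mixed barcodes the CV2 of Cd79b was 0.474, against 4.87 with them.

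Slc1a3, the glutamate transporter gene used as an astrocyte marker, was in 51.7% of members at 176 CPM, while Slc1a2 came from 1 member with 14 UMIs. It had 1 UMI in B cell barcodes and 3 in T cell barcodes. Mag, a myelin gene, was in 10.1% of members with Mog at 0, and had 0 UMIs in B and 1 in T cell barcodes. Of the same list, Cnp (225 UMIs, 22.3% of members) and Mbp (99 UMIs, 9.06%) were read. These genes were read in lymphocyte barcodes too. Cnp was in 74.3% of B and 54.1% of T cell barcodes, and Mbp in 5.31% and 33.6%. Cd34, a progenitor and endothelial gene, was in 32.5% with Cldn5 at 0. Cd34 had 0 UMIs in B and 3 in T cell barcodes. By contrast S100a9 was in 44.0% of members, 28.3% of B and 37.0% of T cell barcodes, at median depths of 5190, 3553 and 6153 UMIs.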
